A study of Arabidopsis thaliana with 14 samples.

Results

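The JASMONATE ZIM-DOMAIN (JAZ) proteins are the repressors of jasmonate signalling in Arabidopsis thaliana, and 10 genes of the family were followed here over 14 arrays. The genes, with the array row of each, were JAZ1 (AT1G19180_at), JAZ2 (AT1G74950_at), JAZ3 (AT3G17860_at), JAZ5 (AT1G17380_at), JAZ6 (AT1G72450_at), JAZ7 (AT2G34600_at), JAZ8 (AT1G30135_at), JAZ9 (AT1G70700_at), JAZ10 (AT5G13220_at) and JAZ12 (AT5G20900_at), chosen by gene name and locus. The choice uses no measured value but was made with earlier results of these data known. They are 10 of the 21195 loci with a value on the arrays. JAZ4 also had a value row but was not among the chosen genes, and JAZ11 and JAZ13 were not analysed here.

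Jasmonate is a lipid hormone of wounding, defence, stamen maturation and fertility. In its absence JAZ proteins bind transcription factors such as MYC2 and recruit the adaptor NINJA and the co-repressor TOPLESS (TPL), which keeps target genes off. The active hormone, jasmonoyl-isoleucine, joins JAZ proteins to the receptor COI1, the JAZ proteins are degraded and the targets are released. Most JAZ genes are themselves targets of the MYC factors, so their transcripts are widely used as readouts of the pathway, in which new JAZ protein restores repression.

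The plants were in the Landsberg erecta background, grown under long days, and were compared during global arrest, the end of flowering at which inflorescences of fruit-bearing plants stop making flowers. Whole inflorescences with buds up to about floral stage 10 were pooled from primary and secondary branches of 3 to 10 plants. There were 2 arrays of arrested fertile plants with their fruits, and 2 for each of 3 times (6 h, 24 h, 48 h) at which such plants were sampled once fruits had been taken off. Single arrays came from growing fertile plants and from growing ms1-1 homozygous plants, which are male sterile and set no seed. Meristems were laser-dissected from 10 µm sections of at least 20 plants, and their RNA was amplified before labelling. They came from arrested fertile, growing fertile and growing ms1-1 homozygous plants and from plants 48 h after fruit removal, with 1 array each. All fertile plants, treated or not, carry the genotype label ms1-1 co-segregant, although the treatment protocol names L-er plants for the fruit removal series. The protocol leaves the 3 to 4 fruits nearest the inflorescence in place, whereas the series description has all fruits removed. The labels give no age, no time of day and no statement that replicate pools were grown or harvested separately, so the tests reflect pool-to-pool spread, which may be technical.

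Values were read as log2 of the array signal from their range, 0 to 14.13, because the files state no scale. Array medians lay between 7.27 and 7.45 in inflorescences and between 7.43 and 7.49 in meristems. Replicate arrays correlated across loci at 0.991 (6 h), 0.982 (24 h), 0.975 (48 h) and 0.947 (arrested). The titles of the inflorescence arrays begin with a letter code of unstated meaning. Arrested replicate 1 and both growing arrays have the code r, and arrested replicate 2 and all 6 fruit removal arrays have the code g. Of 4 clock genes looked at after values were seen, GI and TOC1 separated the codes and CCA1 and LHY did not. GI lay at 10.0 to 10.69 on the 3 r arrays and at 5.39 to 8.11 on the 7 g arrays, and TOC1 at 8.71 to 9.45 and 6.95 to 7.91. CCA1 lay at 5.75 to 10.5 on the r arrays and at 8.42 to 10.01 on the g arrays, and LHY at 6.29 to 9.65 and 9.0 to 11.21. Arrested replicate 1 read 10.69 for GI and arrested replicate 2 read 7.99, so the arrested pair spans both codes and the growing arrays share a code with 1 arrested array only. The labelled tissue could be checked by markers. The stem cell gene CLV3 read 8.47 to 9.26 in the dissected meristems and 4.51 to 5.38 in whole inflorescences, and the meristem gene STM read 11.25 to 11.41 and 8.23 to 9.40.

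All members except JAZ12 had their highest inflorescence group mean 6 h after fruit removal. JAZ5, JAZ10, JAZ1 and JAZ7 were called higher at 6 h than in arrest, and the first of these by more than an order of magnitude. By 24 h and 48 h JAZ5 and JAZ10 were still called higher and no member was called lower. With the title code in the model, JAZ5 alone was called higher at these times, and 2 members were called lower at each. These were JAZ6 and JAZ9 at 24 h and JAZ6 and JAZ3 at 48 h. In that fit 27.0% (24 h) and 30.9% (48 h) of all loci were called in either direction, near the 3 of 10 members. Without arrested replicate 1 the differences were the same. In whole tissue, a change in the share of a cell type and a change in RNA per cell cannot be told apart.

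**Figure D1:**
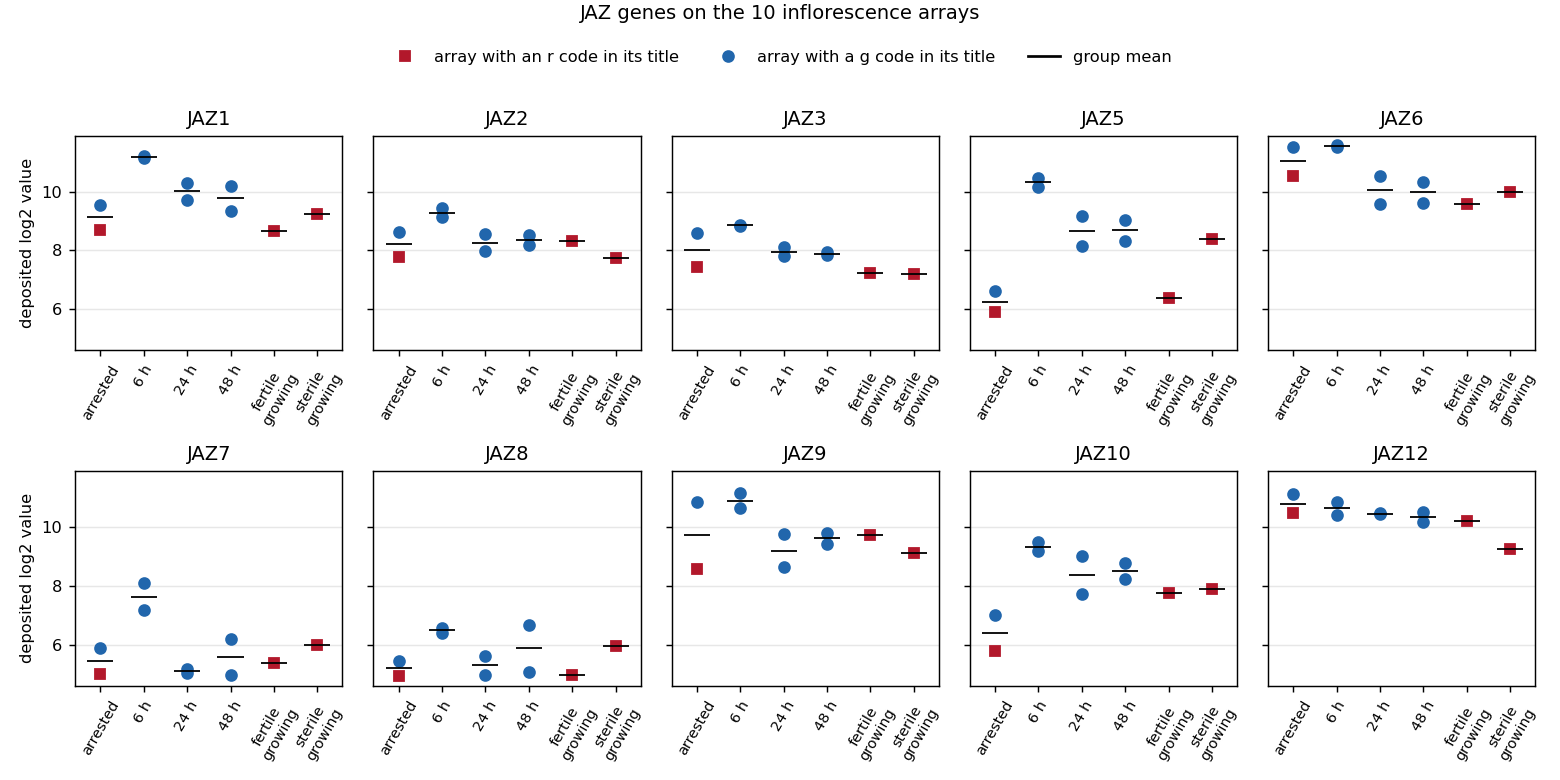
Deposited log2 value of each of the 10 JAZ genes on the 10 inflorescence arrays. Squares are arrays with the r code, circles those with the g code and bars group means (1 or 2 arrays). Both 6 h arrays of JAZ5 lie above 10, against 5.89 and 6.62 in arrest, while JAZ12 stays between 9.25 and 11.12.

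JAZ5 had the widest range of the family over the inflorescence arrays, 4.58 log2 units. It read 5.89 and 6.62 in arrest, 10.47 and 10.17 at 6 h, 9.18 and 8.16 at 24 h, and 9.04 and 8.33 at 48 h. The growing fertile array read 6.39 and the growing sterile array 8.38. Every fruit removal array except the lower of the 24 h pair and the lower of the 48 h pair was thus above both growing arrays, and every one was above both arrested arrays. The rise at 6 h was 4.07 ± 0.41 (SE, n = 2 against 2, adjusted p = 0.0023, limma), a 16.7-fold difference. It was 2.42 ± 0.41 at 24 h (adjusted p = 0.0066) and 2.43 ± 0.41 at 48 h (adjusted p = 0.0045). JAZ5 was called at all 3 times under each of the 15 alternatives tried, which include leaving out each array, with adjusted p between 0.0015 and 0.041.

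JAZ10, whose splice forms can lack part of the Jas domain that binds COI1 and then resist degradation, had the second widest range, 3.71. It read 5.79 and 7.02 in arrest, 9.50 and 9.18 at 6 h, 9.01 and 7.73 at 24 h, and 8.79 and 8.22 at 48 h. Growing fertile tissue read 7.77 and growing sterile tissue 7.88. Both arrested arrays were the lowest of the 10, and both 6 h arrays the highest. The rise over arrest was 2.94 ± 0.51 at 6 h (adjusted p = 0.0075), 1.97 ± 0.51 at 24 h (adjusted p = 0.03) and 2.1 ± 0.51 at 48 h (adjusted p = 0.02). Without arrested replicate 1 the later differences were 1.35 (adjusted p = 0.098) and 1.49 (adjusted p = 0.07), and neither was called. The 24 h call was also lost without 24 h replicate 1 (1.33, adjusted p = 0.15), and the 48 h call without 48 h replicate 1 (1.82, adjusted p = 0.11) or replicate 2 (2.39, adjusted p = 0.053). The array values do not separate splice forms.

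JAZ1, a widely studied co-receptor of COI1, read 8.70 and 9.56 in arrest, 11.23 and 11.16 at 6 h, 10.30 and 9.72 at 24 h, and 10.21 and 9.34 at 48 h. The growing arrays read 8.66 (fertile) and 9.23 (sterile). The 6 h arrays stood above all others, and the 48 h pair overlapped arrest. JAZ1 rose by 2.07 ± 0.38 at 6 h (adjusted p = 0.0092). Its differences of 0.88 ± 0.38 at 24 h (adjusted p = 0.14) and 0.65 ± 0.38 at 48 h (adjusted p = 0.26) were not called.

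JAZ7 and JAZ8 carry an EAR motif with which they can bind TPL without NINJA. JAZ7 read 4.99 and 5.88 in arrest, 8.08 and 7.18 at 6 h, 5.04 and 5.15 at 24 h, and 6.18 and 4.95 at 48 h. The growing arrays read 5.36 (fertile) and 5.97 (sterile). Only the 6 h pair stood apart from the other arrays, and JAZ7 rose by 2.20 ± 0.48 there (adjusted p = 0.016). With the title code in the model, or without arrested replicate 1, that difference was 1.75 (adjusted p = 0.054). At 24 h and 48 h it was -0.34 ± 0.48 (adjusted p = 0.64) and 0.13 ± 0.48 (adjusted p = 0.88).

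JAZ8 stayed below every array's median. It read 4.93 and 5.45 in arrest, 6.38 and 6.58 at 6 h, 5.60 and 4.97 at 24 h, 6.66 and 5.07 at 48 h, 4.96 in growing fertile and 5.96 in growing sterile tissue. The 48 h pair was the widest of its pairs and held both the highest value of the gene and one near its lowest. The 6 h difference of 1.29 ± 0.48 (adjusted p = 0.098) was not called, although the arrays did not overlap. With no detection calls used here, it is not known whether such values lie above background.

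JAZ2, known for its role in guard cells and stomatal defence, read 7.78 and 8.64 in arrest, 9.45 and 9.13 at 6 h, 8.57 and 7.97 at 24 h, 8.51 and 8.17 at 48 h, 8.31 in growing fertile and 7.74 in growing sterile tissue. JAZ3, the gene of the dominant jasmonate-insensitive mutant jai3-1, read 7.44 and 8.60, 8.86 and 8.84, 8.11 and 7.80, and 7.96 and 7.83 over the same arrested, 6 h, 24 h and 48 h pairs. Its growing arrays read 7.23 (fertile) and 7.18 (sterile). Both genes had their 6 h arrays above all others, and neither was called against arrest. The 6 h differences were 1.08 ± 0.33 for JAZ2 (adjusted p = 0.053) and 0.83 ± 0.34 for JAZ3 (adjusted p = 0.13).

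JAZ6 and JAZ9 were already high on arrested replicate 2. JAZ6 read 10.55 and 11.53 in arrest, 11.58 and 11.52 at 6 h, 10.53 and 9.57 at 24 h, 10.33 and 9.63 at 48 h, 9.58 in growing fertile and 9.98 in growing sterile tissue. Its 24 h and 48 h arrays were all below both arrested arrays, by 0.99 ± 0.42 (adjusted p = 0.13) and 1.06 ± 0.42 (adjusted p = 0.11) on average, and neither difference was called. JAZ9, which can bind the gibberellin repressor RGA, read 8.57 and 10.87 in arrest, 11.16 and 10.64 at 6 h, 9.75 and 8.63 at 24 h, and 9.81 and 9.44 at 48 h. The growing arrays read 9.74 (fertile) and 9.13 (sterile). The arrested arrays of JAZ9 differed by more than any other replicate pair of a member (SD 1.63, n = 2), and its 6 h difference of 1.18 ± 0.69 (adjusted p = 0.28) was within that spread.

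JAZ12, whose protein is kept stable by the ubiquitin ligase KEG, was the member whose 6 h mean was not its highest. It read 10.48 and 11.12 in arrest, 10.87 and 10.43 at 6 h, 10.44 and 10.47 at 24 h, 10.16 and 10.52 at 48 h, 10.21 in growing fertile and 9.25 in growing sterile tissue. Its highest group mean was in arrest (10.8), and its 6 h difference was -0.15 ± 0.27 (adjusted p = 0.76), which became 0.30 after quantile normalization. JAZ4, outside the chosen genes, lay between 4.37 and 5.16 on all inflorescence arrays, and its 6 h difference was -0.20 ± 0.18 (adjusted p = 0.50).

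Against arrest, 4 of the 10 members were called higher at 6 h and 0 lower, where 8.70% of all loci tested were called higher and 13.1% lower. The median difference of the members was 1.24, against -0.09 over all loci. All arrays at 6 h were above all arrested arrays for 7 members, which holds for 24.6% of all loci. At 24 h the count was 2 higher and 0 lower (background 10.5% and 11.5%) with a member median of 0.00, and at 48 h it was 2 higher and 0 lower (background 12.5% and 13.9%) with a median of 0.13. At these later times 2 of 10 called higher is close to the share over all loci. These 3 comparisons share the arrested arrays.

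**Figure D2:**
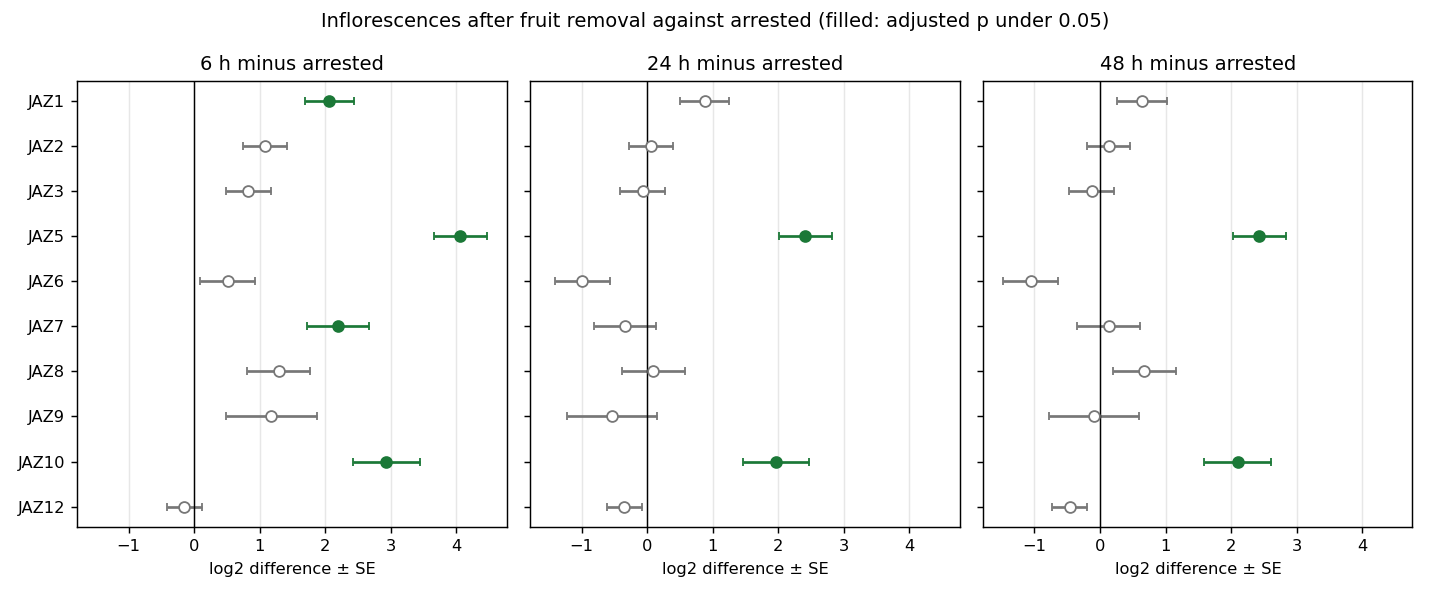
Log2 difference from arrest at 6 h, 24 h and 48 h after fruit removal for each member, with standard errors from limma. Filled points passed an adjusted p under 0.05. JAZ5 and JAZ10 are filled in all 3 panels, and JAZ1 and JAZ7 at 6 h only.

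The choice of arrested array moved every member. All 10 read higher on arrested replicate 2 than on replicate 1, by a median of 0.88, while the median over all loci was 0.06. The spread of the members between the arrested arrays (median SD 0.62) was also wider than at 6 h (0.22), 24 h (0.44) or 48 h (0.45). Because the model shares 1 spread over all groups, standard errors for comparisons with arrest can be too small. Without arrested replicate 1, JAZ1, JAZ5 and JAZ10 were called at 6 h, while the differences of JAZ3 (0.25), JAZ6 (0.02) and JAZ9 (0.03) were near 0. Without arrested replicate 2, JAZ2, JAZ3 and JAZ9 were called in addition to the members called with both arrested arrays, and more of all loci were called as well. JAZ9 then differed by 2.33. The 6 h calls of JAZ1, JAZ7 and JAZ10 did not hold without 6 h replicate 1, nor that of JAZ1 without 6 h replicate 2. Each of these fits leaves 1 array at 6 h, and fewer of all loci were called in them as well. The difference of JAZ1 was then 2.03 and 2.1, against 2.065 with both arrays. Without 6 h replicate 1 it was 2.775 for JAZ10 and 1.745 for JAZ7, against 2.935 and 2.195. Since each code holds 1 arrested array, the code and the array cannot be told apart here.

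**Figure D3:**
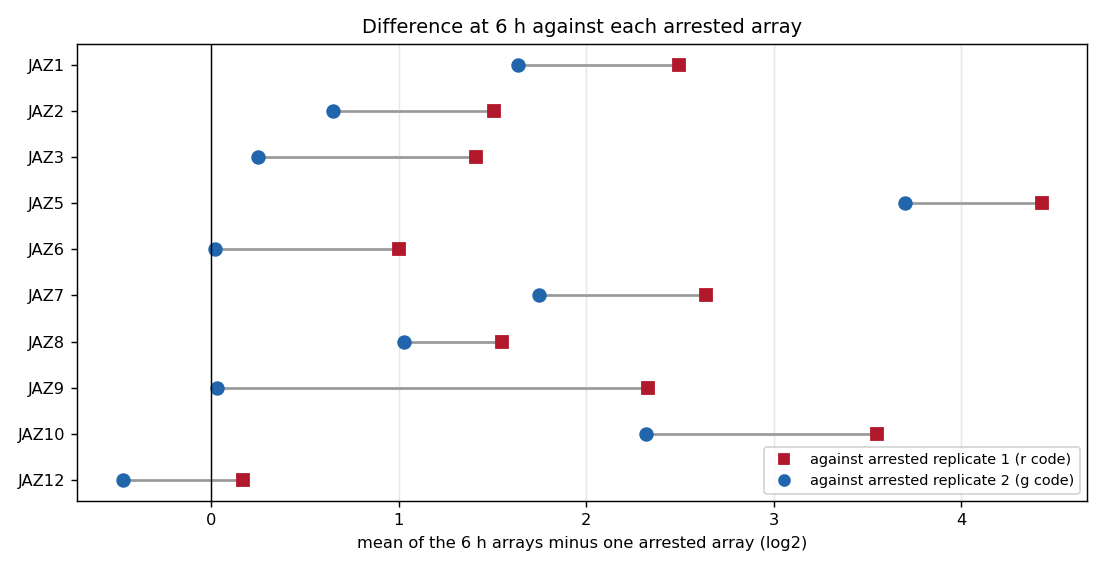
Mean of the 6 h arrays minus each arrested array for the 10 members, in log2 units, with no test. The difference from arrested replicate 1 (squares) exceeds that from replicate 2 (circles) for every member. JAZ5 lies furthest right on both, and JAZ12 changes sign.

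Markers of other conditions and cell types were set beside the 6 h result. Of 7 wounding-induced genes 0 were called at 6 h against arrest, where 8.70% of all loci were called higher and 13.1% lower. Of their differences 6 were positive and 1 negative, with a median of 0.245, against -0.085 over all loci. All 6 h arrays were above both arrested arrays for 3 of them and below for 1, which holds for 24.6% and 36.2% of all loci. The list mean was 6.58 and 7.03 in arrest and 7.07 and 7.04 at 6 h. The most shifted, the calcium sensor gene CML38, differed by 1.14 ± 0.36 (adjusted p = 0.06). All 5 tapetum and anther markers were uncalled at 6 h, with a list mean of 4.86 and 4.93 in arrest and 4.58 and 4.69 at 6 h. The 2 measured late pollen genes AGP11 (-2.20 ± 0.41, adjusted p = 0.0098) and AGP6 (-2.28 ± 0.56, adjusted p = 0.025) fell, as did the 2 measured green tissue genes PSBO1 (-1.60 ± 0.19, adjusted p = 0.0026) and RCA (-1.28 ± 0.24, adjusted p = 0.01). Neither the 5 shoot meristem markers nor the phloem markers were called at 6 h, and SUC2 differed by -1.16 ± 0.40 (adjusted p = 0.077). The part of these tissues in the JAZ differences was not tested.

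From 6 h to 24 h the values of all 10 members went down, by 0.20 (JAZ12) to 2.54 (JAZ7), but limma called 0 members and 0 of 21195 loci (background 0%). At an unadjusted p under 0.05 there were 8 members, all but JAZ10 and JAZ12, and 2329 loci. The arrays did not overlap for 9 members, the 24 h pair lying below the 6 h pair, which holds for 17.1% of all loci. The median difference of the members was -1.19, against 0.15 over all loci. JAZ7 differed by -2.54 ± 0.48 (adjusted p = 0.24), JAZ5 by -1.65 ± 0.41 (adjusted p = 0.31) and JAZ6 by -1.5 ± 0.42 (adjusted p = 0.35). Leaving out 1 array of either pair leaves 1 array in that group, so only the size of the difference is given. With each array left out in turn it lay between -2.985 and -2.085 for JAZ7 and between -2.16 and -1.14 for JAZ5. For JAZ12 it lay between -0.415 and 0.025. The clock gene GI read 8.11 and 7.84 at 6 h and 5.97 and 5.39 at 24 h, and the part of time of day was not tested.

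Between 24 h and 48 h the members' differences lay between -0.24 (JAZ1) and 0.58 (JAZ8). None was called by limma, and 119 of all loci were called (0.561%). At an unadjusted p under 0.05 there were 0 members and 6.32% of loci. JAZ5 stood at a mean of 8.67 at 24 h and 8.69 at 48 h, and JAZ10 at 8.37 and 8.51. The 5 tapetum and anther markers were all called higher at 48 h than in arrest, with list means of 8.63 and 9.19 against 5.21 and 5.09 at 24 h, and their part in the 48 h values was not tested. Within both times the first replicate read higher for most members, 8 of 10 at 24 h and 9 of 10 at 48 h, against a median difference of 0.15 and 0.12 in the other direction over all loci. Across loci, the replicate difference at 24 h correlated with that at 48 h at 0.304.

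Growing inflorescences, fertile and sterile together, differed from arrest by a call only for JAZ12, which fell by 1.07 ± 0.27 (adjusted p = 0.023). Over all loci 11.9% were called lower and 14.0% higher in this comparison, and the median of the members was -0.19, against 0.07. JAZ12 was not called without the sterile array, which held its lowest value (9.25), or with the title code in the model (-0.75, adjusted p = 0.074). JAZ6 and JAZ3 read lower in both growing arrays than in both arrested arrays, by 1.26 ± 0.42 (adjusted p = 0.064) and 0.82 ± 0.34 (adjusted p = 0.12). JAZ10 read higher in both, by 1.42 ± 0.51 (adjusted p = 0.077), and with the title code in the model it was called, at 2.04 (adjusted p = 0.03). Both growing arrays lay below both arrested arrays for 3 of the 10 members and above them for 1. Over all loci this held for 23.0% and 26.9%, so the members were near or under these shares. The tapetum and anther list, whose means were 9.95 and 9.18 in growing tissue, moved with this comparison, and its part was not tested.

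JAZ5 gave the largest difference of the family between sterile and fertile growing inflorescences, 8.38 against 6.39. This was 1.99 ± 0.57 with 1 array each, whose spread is borrowed from the other groups, and it was not called (adjusted p = 0.17). JAZ8 differed by 1.00 ± 0.68 (adjusted p = 0.44) and JAZ12 by -0.96 ± 0.38 (adjusted p = 0.24). By limma 0 members were called and 142 loci (0.670%). Before adjustment 2 of the 10 members, JAZ5 and JAZ12, and 3987 loci (18.8%) had a p under 0.05, so the members were near the share over all loci.

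Set against growing instead of arrested tissue, the 6 h values were higher for all 10 members, and for each of them both 6 h arrays were above both growing arrays, which holds for 20.2% of all loci. The test called 6 members higher, with a background of 5.95%. They were JAZ5 (2.94 ± 0.41, adjusted p = 0.0041), JAZ1 (2.25 ± 0.38, adjusted p = 0.0088), JAZ3 (1.65 ± 0.34, adjusted p = 0.019), JAZ6 (1.77 ± 0.42, adjusted p = 0.029), JAZ7 (1.97 ± 0.48, adjusted p = 0.03) and JAZ2 (1.27 ± 0.33, adjusted p = 0.039). JAZ12 missed the threshold at 0.92 ± 0.27 (adjusted p = 0.054). The 6 h arrays all have the code g and the growing arrays the code r, so only the arrested pair links them. With the title code in the model 0 members were called, against 9.96% of all loci. The difference of JAZ9 then turned to -0.84 (adjusted p = 0.45), and the other 9 lay between 0.28 (JAZ12) and 2.21 (JAZ5). The calls of JAZ2, JAZ3, JAZ6 and JAZ7 did not hold without the sterile array. Those and that of JAZ1 did not hold without 6 h replicate 1 or without 6 h replicate 2. The calls of JAZ6 (then 1.57) and JAZ7 (then 1.66) were also lost without the fertile array. Each of these fits leaves 1 array on a side, and fewer of all loci were called in them as well. The call of JAZ2 was also lost without any 1 of the 24 h or 48 h arrays, and that of JAZ7 without either 24 h array. Those arrays are outside this comparison, so the differences stayed at 1.265 and 1.965, and again fewer of all loci were called. Over the fits with 1 array left out, the difference lay between 1.94 and 3.93 for JAZ5 and between 0.98 and 1.55 for JAZ2. Wounding markers also differed here, with 3 of 7 called higher, ZAT10 by 2.25, CML38 by 1.71 and WRKY33 by 1.28. All 5 tapetum and anther markers were called lower. The part of these lists was not tested. At 48 h, 0 members and 1.07% of loci were called against growing tissue. Before adjustment 1 member and 17.7% of loci had a p under 0.05. JAZ5 differed by 1.30 ± 0.41 (adjusted p = 0.17).

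Many genes of jasmonate synthesis were also called higher at 6 h. Of 12 measured synthesis genes 8 were called higher and 0 lower, against 8.70% and 13.1% of all loci, and their median was 1.25, against -0.09 over all loci. AOC3, an allene oxide cyclase, rose by 2.39 ± 0.21 (adjusted p = 0.002) and AOS, the allene oxide synthase, by 1.95 ± 0.21 (adjusted p = 0.0024). OPCL1, a CoA ligase of the peroxisomal steps, rose by 1.97 ± 0.25 (adjusted p = 0.0032), and OPR3, which reduces the precursor OPDA, by 1.70 ± 0.24 (adjusted p = 0.004). At 24 h 4 were called higher (10.5% of all loci) and at 48 h 5 (12.5% of all loci), with AOC3 still 1.87 ± 0.21 above arrest at 48 h (adjusted p = 0.00098). In growing tissue only AOC3 was called, at 1.34 ± 0.21 (adjusted p = 0.0032).

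Genes that break down or convert jasmonates were called higher at 6 h in 7 of 10 cases and lower in 1 (8.70% and 13.1% of all loci), with a median of 1.29. JMT, which makes methyl jasmonate, rose by 4.09 ± 0.70 (adjusted p = 0.0073). ILL6, an amidohydrolase that cleaves jasmonoyl-isoleucine, rose by 2.80 ± 0.52 (adjusted p = 0.0094). ST2A, a sulfotransferase of hydroxyjasmonate, rose by 1.14 ± 0.20 (adjusted p = 0.0079), and CYP94C1, an oxidase of jasmonoyl-isoleucine, by 0.93 ± 0.19 (adjusted p = 0.013). JMT was also 3.93 ± 0.70 higher in growing than in arrested tissue (adjusted p = 0.0057), where of the JAZ genes only JAZ12 was called, in the other direction. The call counts of this list were 3 higher and 1 lower at 24 h (10.5% and 11.5% of all loci) and at 48 h (12.5% and 13.9%).

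No gene of the receptor and co-repressor list was called higher after fruit removal. Of 11 measured, 0 were called higher and 2 lower at 6 h, 3 lower at 24 h and 4 lower at 48 h, where 13.1%, 11.5% and 13.9% of all loci were called lower. The 6 h counts are near the shares over all loci. COI1 differed by -0.45 ± 0.17 at 6 h (adjusted p = 0.11) and NINJA by 0.19 ± 0.18 (adjusted p = 0.53). TPL fell by 0.95 ± 0.17 at 6 h (adjusted p = 0.0086) and by 1.40 ± 0.17 at 48 h (adjusted p = 0.0013), and MED25, a Mediator subunit that works with MYC2, fell by 0.93 ± 0.17 at 6 h (adjusted p = 0.0088). TPL was also lower in growing than in arrested tissue, by 1.14 ± 0.17 (adjusted p = 0.0026).

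The transcription factors that JAZ proteins bind showed 1 rise and 3 falls among 21 measured at 6 h, near the shares over all loci (8.70% higher, 13.1% lower). MYC2 differed by 0.36 ± 0.33 (adjusted p = 0.50), MYC3 by -0.74 ± 0.25 (adjusted p = 0.076) and MYC4 by 0.52 ± 0.28 (adjusted p = 0.24) from arrest, so none of the 3 MYC factors was called. MYB75, an activator of anthocyanin genes, rose by 3.35 ± 0.40 (adjusted p = 0.0027). The ethylene factors EIL1 and EIN3 fell by 2.1 ± 0.26 (adjusted p = 0.0029) and 0.92 ± 0.19 (adjusted p = 0.015), and ICE1, of cold response, by 0.81 ± 0.19 (adjusted p = 0.021). Against growing tissue, 4 of the 21 were called higher at 6 h and 1 lower, where 5.95% and 10.3% of all loci were. MYC2 was higher by 1.18 ± 0.33 (adjusted p = 0.047) and MYC4 by 1.49 ± 0.28 (adjusted p = 0.013). The 6 h arrays have the code g and the growing arrays the code r, so only the arrested pair links them, as for the members.

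Of 14 measured output genes 5 were called higher and 1 lower at 6 h, 5 and 3 at 24 h, and 5 and 4 at 48 h. Over all loci 8.70% were called higher and 13.1% lower at 6 h, 10.5% and 11.5% at 24 h, and 12.5% and 13.9% at 48 h. CORI3, induced by coronatine, which mimics the hormone, rose by 2.57 ± 0.23 at 6 h (adjusted p = 0.002). JR1, a jasmonate-induced lectin, rose by 2.45 ± 0.35 at 6 h (adjusted p = 0.0042) and was 3.38 ± 0.35 above arrest at 48 h (adjusted p = 0.00074). CLH1, a chlorophyllase, rose by 1.48 ± 0.28 at 6 h (adjusted p = 0.01). NAC019, a MYC2 target that also responds to abscisic acid, fell by 1.33 ± 0.28 (adjusted p = 0.015). JR1 was thus further from arrest at 48 h than at 6 h, while JAZ5 was nearer to it. The change from 6 h to 48 h was not tested.

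**Figure D4:**
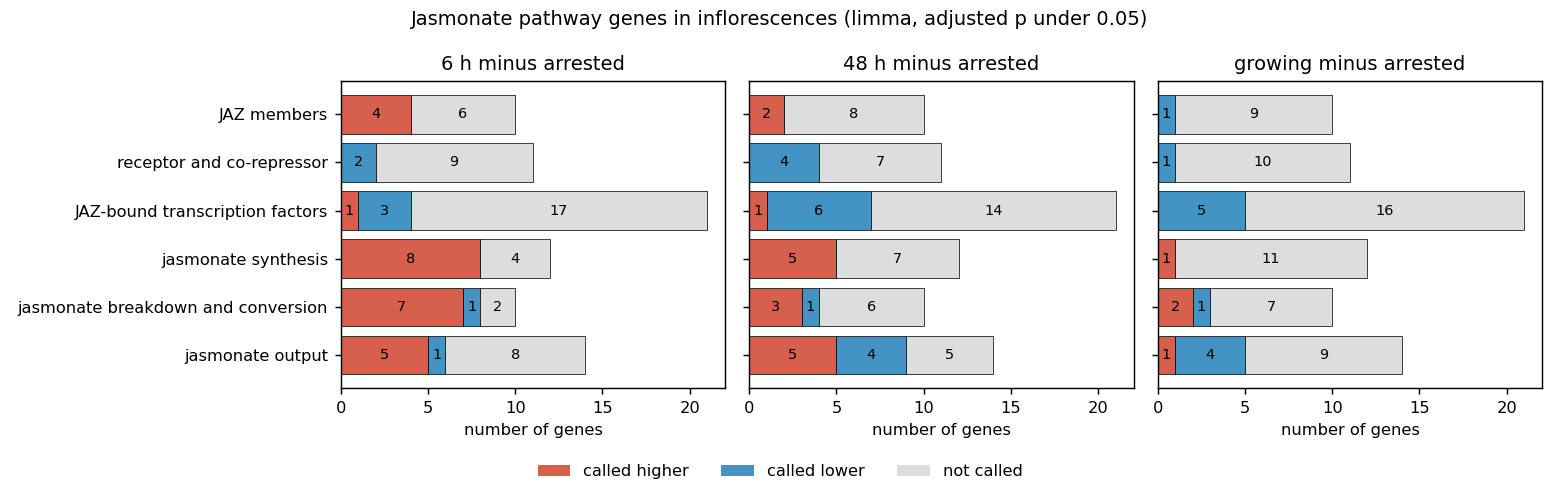
Number of genes called higher, called lower and not called by limma in 6 gene lists of the jasmonate pathway, for inflorescences 6 h and 48 h after fruit removal and growing inflorescences, each against arrest. At 6 h the synthesis list holds 8 called higher of 12, the JAZ members 4 of 10 and the receptor and co-repressor list 0 of 11.

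In dissected meristems, with 1 array a group and no test, JAZ5 and JAZ10 again had their lowest value in arrest. JAZ5 read 6.16 in the arrested meristem, 7.74 in the growing fertile, 7.89 in the growing sterile and 8.46 in that taken 48 h after fruit removal. JAZ10 read 6.58, 8.22, 7.75 and 8.65 in the same order. They were the only members to pass 4-fold between 48 h after fruit removal and arrest, both higher, with log2 differences of 2.30 and 2.07. Of all loci 1.22% passed 4-fold in either direction, 106 of them higher. After quantile normalization the count was 1.

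Most other members had their highest meristem value in arrest. JAZ7 read 7.11 in the arrested meristem and 5.31, 5.52 and 5.78 in growing fertile, growing sterile and 48 h tissue. JAZ9 read 7.24, 6.54, 6.09 and 6.20 in that order, and JAZ2 read 8.38, 7.59, 7.40 and 7.33. For JAZ6 the values were 7.55, 6.11, 5.66 and 7.40, and for JAZ1 they were 8.35, 7.10, 7.37 and 8.74. JAZ1 and JAZ6 were thus low in both growing meristems and high in the arrested one and 48 h after removal. JAZ3 ranged from 7.44 to 8.04, JAZ8 from 4.71 to 5.09 and JAZ12 from 9.31 to 9.45, the narrowest range of the family.

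Against the arrested meristem, 7 members read lower 48 h after removal, 7 in growing fertile and 8 in growing sterile meristems. The medians were -0.16, -0.65 and -0.64, against 0.08, 0.04 and 0.10 over all loci. No member passed 4-fold between growing and arrested meristems, as 1.24% (fertile) and 1.58% (sterile) of loci did. The same holds between 48 h and growing fertile meristems (0.184% of loci) and between sterile and fertile meristems (0.151%), and the widest member difference was 1.64 for JAZ1, between 48 h and growing fertile. Wounding markers averaged 7.57 in the arrested meristem, 7.34 at 48 h, and 6.95 and 7.05 in growing fertile and sterile meristems, and their part was not tested. These 5 differences share arrays, so they are not independent.

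**Figure D5:**
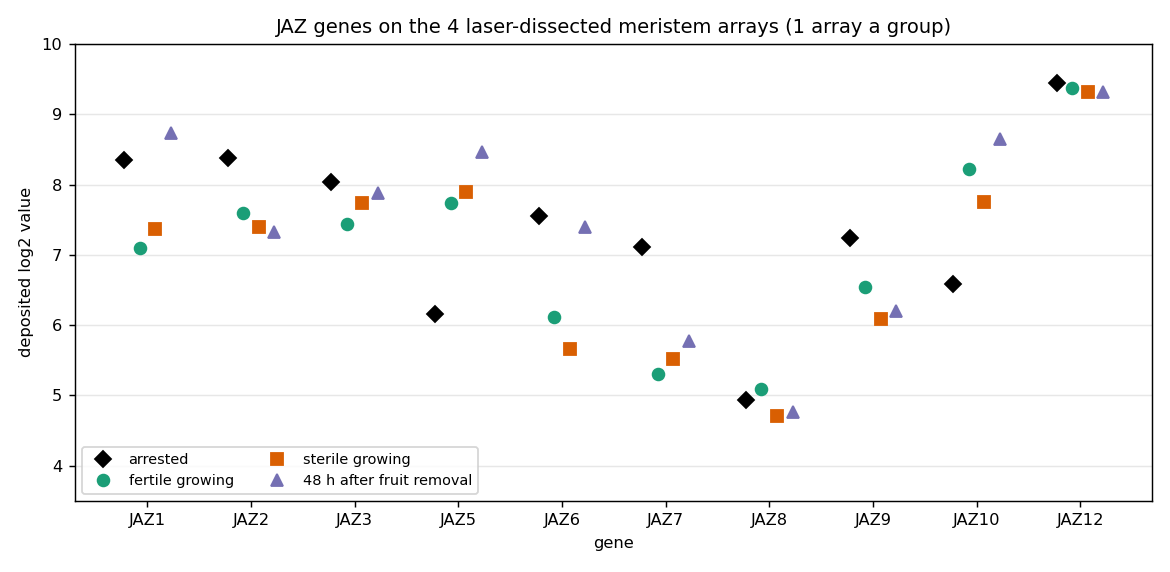
Deposited log2 value of each JAZ gene on the 4 meristem arrays, 1 array a group, with no error. For JAZ5 and JAZ10 the arrested meristem (diamond) is lowest and the 48 h one (triangle) highest, while for JAZ7 the arrested meristem is highest, at 7.11 against 5.78 or less.

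The members' profiles over the 10 inflorescence arrays ran together to different degrees. Of the 45 pairs of members 42 had a Pearson correlation above 0, with a median of 0.678 and a range of -0.135 to 0.92. Over the 8 arrested and fruit removal arrays the median was 0.732. These arrays share groups and codes, so the correlations describe likeness only.

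For each member the 3 most like loci were taken among 5757 with an SD of at least 0.5. Of these 30 loci, 7 are in the lists of jasmonate synthesis and breakdown genes, which hold 12 and 10 measured genes. For JAZ5 they were OPR3 (r = 0.975), the mitochondrial ADP/ATP carrier gene AAC2 (0.968) and the cellulose synthase-like gene CSLA11 (0.967). For JAZ10 the most like was ILL6 (r = 0.980). For JAZ7 it was CYP94B1 (r = 0.900) and for JAZ8 CYP94B3 (r = 0.894), both oxidases of jasmonoyl-isoleucine, and LOX4, a lipoxygenase of jasmonate synthesis, was the next for JAZ8 (0.856). JAZ9 was most like RAP2.6 (r = 0.910), an ERF factor, JAZ3 most like MYBR1 (0.980), a MYB factor, and JAZ1 most like ADK (0.951) and the calmodulin-like touch gene TCH2 (0.950). JAZ2 was most like AT5G56980 (r = 0.900), JAZ6 most like AT3G50400 (0.960) and JAZ12 most like AT3G55960 (0.951). Of the 30 loci 11 were also among the 3 most like without the growing arrays.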

How the data were processed

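The deposited value table held 14 Affymetrix arrays, labelled with 3' IVT reagents per the labels' protocols, as 1 row per locus. The deposited values were taken as log2 signal from their range, and summary method, normalization and build are not given in the sources used here. Of 21253 rows, 58 controls were left out. Of 21195 loci, 21097 were in the gene table, which named the genes.

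The 10 inflorescence arrays were fitted together with limma 3.58.1 (R 4.3.3), 1 mean for each of 6 groups, 4 residual and 3.7 prior degrees of freedom. Each of 9 comparisons was adjusted over all loci by Benjamini-Hochberg, and two-sided adjusted p-values under 0.05 counted as calls. Growing is the mean of the fertile and sterile groups. Meristem differences were counted from 4-fold. Alternatives were quantile normalization, median centring, a low-value filter (13254 loci, without JAZ8), a variance trend, the title code as a term and leaving out each array. The number of arrays limits precision.

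Members and lists were chosen with earlier results of these data known. The other 11 lists held 91 measured genes of 102. Of each, the 4 lowest p-values of a comparison could be named, and COI1, NINJA, TPL, MYC2, MYC3 and MYC4 always. Likeness was Pearson's r over 10 arrays.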

Additional observations from a re-analysis of the deposited data

Results flagged for a closer look

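The sterile growing minus arrested difference of 2 members had opposite signs in the inflorescence and in the meristem. The share of all loci with such opposite signs was not counted. JAZ7 was 0.53 higher in the growing sterile inflorescence than the arrested mean and differed by -1.59 in the meristem. In inflorescences it read 5.97 in sterile tissue, close to the 5.88 of arrested replicate 2. JAZ8 was 0.77 higher in the inflorescence and differed by -0.23 in the meristem, at values that may not lie above background. The sterile group is 1 array in each tissue and the arrested meristem is 1 array, so the difference between tissues was not tested.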

How the results depend on the processing

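Leaving out each array in turn, the number of members called ranged from 1 to 7 at 6 h against arrest, from 1 to 3 at 24 h and at 48 h, from 0 to 3 for growing against arrested and from 1 to 9 for 6 h against growing. With the title code in the model, 3 members were called at 24 h, where 27.0% of all loci were called. JAZ5 was higher, and JAZ9 (-1.68, adjusted p = 0.039) and JAZ6 (-1.48, adjusted p = 0.046) were lower. At 48 h 3 were called, where 30.9% of all loci were called. JAZ5 was higher, and JAZ6 (-1.55, adjusted p = 0.036) and JAZ3 (-0.71, adjusted p = 0.037) were lower. Only the g-coded arrested array then bears on these comparisons, and the differences without arrested replicate 1 were the same. For growing against arrested, 1 member, JAZ10, was called higher with the title code in the model, where 24.9% of all loci were called. The fit reported called 1 lower (JAZ12) and 25.9% of all loci. For 6 h against growing 0 members, and 9.96% of all loci, were called with the title code in the model. In meristems, quantile normalization gave 1 member past 4-fold 48 h after removal and 1 lower, JAZ6, in sterile growing against arrested. The lowest counts of the 6 h comparisons came from fits with 1 of the 6 h arrays left out, where fewer of all loci were called as well. The highest counts came from fits with 1 arrested array left out, where more of all loci were called. The ranges thus follow the calls over all loci and do not describe the members alone. The cause of these changes was not tested beyond the arrays left out. The other 124 counts were within 1.5 times of those reported, but 65 of them are 0 in both fits and say nothing about stability. Of the single-member differences 73 not called changed sign or went to 0, and 0 reversed a call, while 44 lost one and 33 gained one. Quantile normalization moved the median of all loci by -0.117 (24 h minus 6 h), -0.186 (sterile minus fertile) and 0.11 (6 h minus growing). No paired analysis was possible because the numbers in the titles all differ between arrays, so no groups share one.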
